A study of Mus musculus with 24 samples.

Results

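Lepr, the gene of the leptin receptor, was followed over 24 microarrays of fibroblasts sorted from mouse colon. It is 1 gene of the 30748 that could be named on these arrays, and 1 probe set, a group of probes summarised to a single value, measured it. Lepr was chosen by its measured levels, which are lower on the arrays labelled with knockout of both Ihh and Apc. Its differences between those arrays and the others are therefore given as a description, with no test. The tests below concern what that choice did not use, which is Lepr in ApcKO against WT, other genes, and the variation of Lepr among arrays of 1 genotype.

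The arrays fall into 3 genotypes. IhhKO_ApcKO, with 9 arrays, carries Villincre-ERT2-ZsGreen with IhhKO and ApcKO. ApcKO, with 8 arrays, carries Villincre-ERT2-ZsGreen with IhhWT and ApcKO. WT, with 7 arrays, carries Villincre-ERT2-ZsGreen with IhhWT and ApcWT. All groups thus share the inducible Cre driver and its ZsGreen reporter, and the study's text speaks of induced mice without giving the ages or the inducing agent. The Villin promoter drives Cre in the intestinal epithelium, so the deletions are aimed at cells that the sort leaves out: the sorted cells were Epcam-, CD45-, CD31- and gp38+, gp38 being podoplanin. Nothing in the labels says whether the arrays are from different mice, and p-values therefore cover only the spread from sample to sample.

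The leptin receptor is a cytokine receptor of the gp130 type. Leptin, the hormone of fat cells, binds it on the cell surface, the kinase Jak2 bound to its long form phosphorylates it, and Stat3 is recruited and turns on genes such as Socs3, which in turn restrains the receptor. Outside the hypothalamus, Lepr is widely used as a marker of stromal cells of the bone marrow. Indian hedgehog (Ihh) is a secreted ligand of the colon epithelium whose signal is received by the fibroblasts beneath it, where Gli1, Ptch1 and Hhip are turned on. Apc restrains Wnt signalling, and its loss in the epithelium starts adenomas.

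The sequences around the annotated starts of Lepr are shown because the report turns on this transcript, and that of Hhip because Hhip was the gene whose level went most closely with Lepr among arrays of 1 genotype (below). They come from RefSeq on the build GRCm38.p6, 300 bases each, written 5′ to 3′ on the strand of the gene, with the bases from the annotated start on in capitals. Lepr has 2 windows in the table, chr4:101717157-101717456 and chr4:101717656-101717955, both on the plus strand, and Hhip has 1, chr8:80057959-80058258 on the minus strand.
Lepr start 1: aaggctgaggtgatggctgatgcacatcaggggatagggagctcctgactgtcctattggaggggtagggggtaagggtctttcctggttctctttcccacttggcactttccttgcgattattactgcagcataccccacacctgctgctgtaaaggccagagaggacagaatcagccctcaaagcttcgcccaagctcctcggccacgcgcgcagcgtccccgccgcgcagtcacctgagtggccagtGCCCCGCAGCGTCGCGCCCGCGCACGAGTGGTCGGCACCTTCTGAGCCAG
Lepr start 2: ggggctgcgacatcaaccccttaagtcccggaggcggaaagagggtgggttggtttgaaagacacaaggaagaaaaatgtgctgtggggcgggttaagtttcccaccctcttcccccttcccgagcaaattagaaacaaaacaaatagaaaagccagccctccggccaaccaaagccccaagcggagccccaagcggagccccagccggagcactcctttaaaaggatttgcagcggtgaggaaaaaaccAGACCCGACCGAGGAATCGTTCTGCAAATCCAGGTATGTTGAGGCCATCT
Hhip: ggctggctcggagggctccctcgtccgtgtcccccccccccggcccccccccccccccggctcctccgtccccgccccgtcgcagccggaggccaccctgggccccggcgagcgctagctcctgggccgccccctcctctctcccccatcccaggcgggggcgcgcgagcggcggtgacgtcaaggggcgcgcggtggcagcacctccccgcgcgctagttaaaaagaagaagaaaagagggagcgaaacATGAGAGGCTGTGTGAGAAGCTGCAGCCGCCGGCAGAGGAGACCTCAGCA
The first Lepr window has 61.3% G and C and 18 CpG dinucleotides, and the second has 54.3% and 13. The Hhip window is richer still, with 73.7% and 30 CpG, against a median of 52.7% and 7 over the 32851 windows of this length. The letters GACCACCCA, the core of the motif bound by Gli transcription factors, were searched on both strands. They occur in neither Lepr window nor in the Hhip window, exactly or with at most 1 mismatch. An exact match was present in 0.253% of all windows, and 1 with at most 1 mismatch in 6.74%. A motif search in so short a window describes these letters only.

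Values are log2 values made by the authors with RMA, so 1 unit is a factor of 2 (precision is limited by how many arrays there are). Array medians lay between 4.96 and 5.14, and the Pearson correlation between any 2 arrays was at least 0.977. The sort matched its labels in the main: the fibroblast genes Dcn, Vim, Pdpn and Col1a1 averaged 12.5, 11.6, 10.9 and 10.8, while the leukocyte gene Ptprc averaged 2.95, the endothelial gene Pecam1 5.72 and the epithelial gene Epcam 6.48. Some markers of the unwanted cells were brighter. Among them were the epithelial genes Car1 and Krt8 with 9.36 and 8.45, the macrophage gene Cd68 with 9.10 and the endothelial gene Tek with 8.42. The fibroblast gene Thy1 was dimmer than the other fibroblast genes, at 7.58. Negative control probe sets had mean levels with a median of 4.60, and 8.09 was their 95th percentile. One library stood apart. On IhhKO_ApcKO array B9, Gli1, Ptch1 and Hhip were at 7.99, 9.53 and 8.96, while the other 8 arrays of this genotype reached at most 7.05, 8.52 and 8.14. B9 is therefore called the library labelled IhhKO_ApcKO B9, and the Lepr, Hedgehog and Jak2 differences from ApcKO are given with and without it. So are the slopes of Hhip, Ptch1, Gli1 and Jak2 on Lepr, and the correlations of Lepr with Hhip, Ptch1 and Gli1 in IhhKO_ApcKO. Sample codes run almost with genotype: IhhKO_ApcKO arrays carry the letter C except B9, ApcKO arrays B except A9, and WT arrays A. What the letter stands for is not given in the sources used here.

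Lepr was lowest in IhhKO_ApcKO fibroblasts, and its means in ApcKO and WT fibroblasts lay within 0.10 log2 units of each other. It averaged 7.63 ± 0.66 in IhhKO_ApcKO (SD, n = 9), 9.06 ± 0.42 in ApcKO (n = 8) and 8.97 ± 0.35 in WT (n = 7). In IhhKO_ApcKO the values were 6.74 on C6, 6.82 on C7, 7.30 on C9, 7.55 on C3, 7.58 on C4, 7.73 on C1, 7.84 on C2, 8.26 on C5 and 8.82 on B9. In ApcKO the lowest was 8.39 on B8, the next 8.47 on A9, the median 9.18 and the highest 9.55 on B3. In WT they ran from 8.45 on A8 through a median of 9.11 to 9.29 on A5. The groups thus separate except for 1 array: the library labelled IhhKO_ApcKO B9 overlaps ApcKO and WT, and the other 8 lie below every ApcKO and every WT array.

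**Figure D1:**
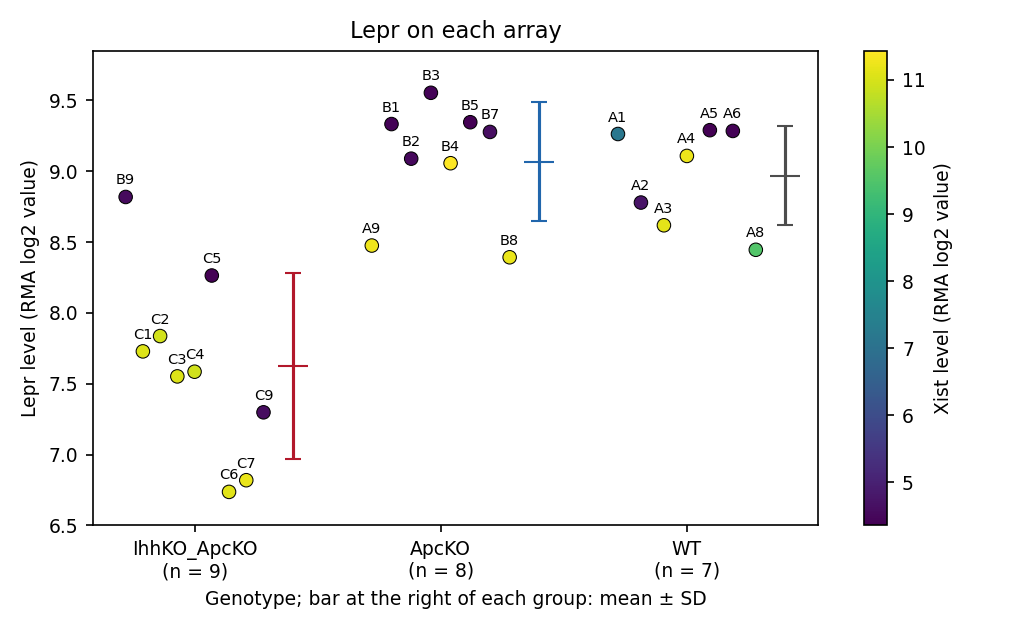
Lepr level (RMA log2 value) on each of the 24 arrays by genotype, each point named by its sample code and coloured by the Xist level (RMA log2 value) of that array; the bar at the right of each group is the mean ± SD. All IhhKO_ApcKO arrays but B9 (8.82) lie below the lowest ApcKO array (8.39) and the lowest WT array (8.45).

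The difference was -1.44 log2 units for IhhKO_ApcKO minus ApcKO (SE 0.226, 95% interval -1.90 to -0.97), a level 2.71-fold lower. For IhhKO_ApcKO minus WT it was -1.34 (SE 0.235, -1.83 to -0.86), or 2.54-fold lower. The IhhKO_ApcKO mean of 7.63 lies under the 95th percentile of the negative controls, and the ApcKO and WT means lie above it, which limits the folds on their low side. These 2 differences share the IhhKO_ApcKO arrays and chose the gene, and no test is attached to them. Without the library labelled IhhKO_ApcKO B9 they were -1.59 and -1.49. In bulk RNA of sorted cells, fewer cells that express a gene and less of its RNA per cell cannot be told apart.

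In the comparison that the choice of Lepr did not use, Lepr in ApcKO fibroblasts did not pass the test against WT. The difference was 0.10 log2 units (SE 0.241, 95% interval -0.40 to 0.59), with an adjusted p of 0.989 from limma with Benjamini-Hochberg adjustment over all named genes. Of the 8 ApcKO arrays, 6 lay above the WT mean. The interval of this fit leaves room for a level up to 0.59 units higher or 0.40 lower. Fitted with the sample letters as blocks, the difference turned to -0.49 (SE 0.414). In that fit ApcKO and WT meet only in the letter A, where ApcKO array A9 alone stands against the WT arrays. Leaving out 1 array moved the difference between 0.01, without WT array A8, and 0.19, without ApcKO array B8. In this contrast 0 genes passed at an adjusted p under 0.05 (0% of those tested), and 1356 had an unadjusted p under 0.05 (4.41%). In the order of the 3 levels, ApcKO and WT are neighbours whose difference was smaller than the spread within either.

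Other measures moved with Lepr among the arrays. Xist, which female cells make from their silenced X chromosome, was over 10.9 on 6 of 9 IhhKO_ApcKO arrays, 3 of 8 ApcKO arrays and 2 of 7 WT arrays. WT arrays A1 and A8, at 7.15 and 9.50, were between these and the low arrays, and both also showed the Y-linked gene Kdm5d, at 6.05 and 6.25. The 3 lowest Lepr values in ApcKO were on A9, B4 and B8, which are the 3 arrays with high Xist there. Within genotype the correlation of Lepr with Xist over the 24 arrays was -0.62, and with Kdm5d 0.61. Lepr was 0.095 units lower per unit of Xist (SE 0.0267), over a span of Xist of 7.08 units. With Xist as a term in the model, an alternative chosen after seeing the data, Lepr in IhhKO_ApcKO minus ApcKO was -1.26 (SE 0.187), or 2.40-fold lower.

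Markers of other cells were compared in the same way. The 16 epithelial markers averaged 6.69 ± 0.85 in IhhKO_ApcKO, 7.02 ± 0.74 in ApcKO and 6.54 ± 0.75 in WT, and their mean had a within-genotype correlation of -0.10 with Lepr. With both Xist and this mean as terms, the Lepr difference was -1.30 (SE 0.180). The smooth muscle markers were 8 of 8 lower in IhhKO_ApcKO than in ApcKO, with a median difference of -0.38; 0 of 8 passed the test, and 8 of 8 had an unadjusted p under 0.05, beside 4.95% of all genes. All 7 measured genes of subepithelial PDGFRA-high fibroblasts were also lower, with a median of -0.20, 0 past the test and 3 at an unadjusted p under 0.05. Their list means had within-genotype correlations of 0.50 and 0.49 with Lepr, and that of pericytes 0.49. The pericyte genes were 4 higher and 4 lower in IhhKO_ApcKO minus ApcKO, with a median of -0.01. For comparison, the 9 measured general fibroblast genes had a median difference of -0.07, the 8 measured genes of CD34-positive fibroblasts -0.06, and all named genes 0.01. In IhhKO_ApcKO minus WT the smooth muscle median was -0.24, with 3 of 8 at an unadjusted p under 0.05, beside 7.63% of all genes. The subepithelial median was -0.05 there, with 6 of 7 lower. In ApcKO minus WT 7 of 8 smooth muscle and 7 of 7 subepithelial genes were higher, with medians of 0.17 and 0.05. The part of these cell types in the Lepr difference was not tested.

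**Figure D2:**
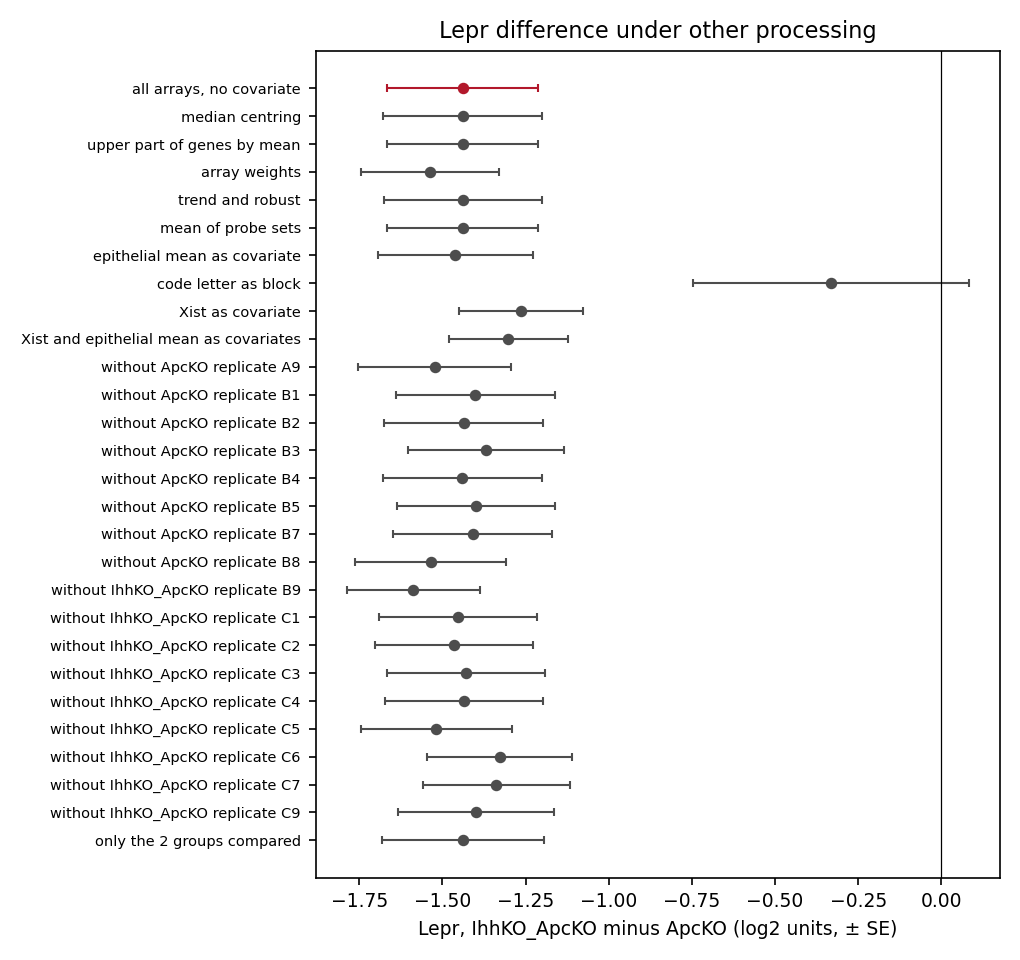
Difference of Lepr between IhhKO_ApcKO and ApcKO (log2 units, point and SE) in the fit as reported (top) and under each other processing or with 1 array left out. The points lie between -1.59 and -1.26, apart from the fit with the code letter as a block, at -0.33.

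The code letter made the largest difference. With the letter as a block, the Lepr difference was -0.33 (SE 0.414), and in that fit IhhKO_ApcKO and ApcKO meet in 1 letter alone, where the library labelled IhhKO_ApcKO B9 stands against 7 ApcKO arrays. The C arrays hold only IhhKO_ApcKO, so within C no ApcKO array stands beside them. Letter and genotype cannot be told apart for these 8 arrays.

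Lepr aside, no measured gene in the lists drawn up around leptin passed the test in any of the 3 contrasts. Lepr itself has no test in the 2 contrasts that chose it, and it did not pass in ApcKO minus WT. These lists cover leptin ligand and receptor genes, leptin signalling, gp130-type receptors and genes that respond to Stat3. They also take in genes of the marrow stroma that expresses Lepr, and adipocyte genes. The lists held 85 genes besides Lepr, of which 76 were measured by a probe set of their own, and 0 of the 76 passed in IhhKO_ApcKO minus ApcKO, where 14 of 30748 genes did (0.0455%, counted over all genes). In IhhKO_ApcKO minus WT 0 of 76 passed, beside 25 of all genes (0.0813%). Both shares are over all genes, Lepr included. At an unadjusted p under 0.05 there were 9 of 76 in each of these contrasts (11.8%), beside 4.95% of all genes in IhhKO_ApcKO minus ApcKO and 7.63% in IhhKO_ApcKO minus WT. The median difference over the 76 was 0.02 in IhhKO_ApcKO minus ApcKO, beside 0.01 over all genes. With so few of all genes past the adjusted threshold, a count of 0 among 76 there is near the background. The unadjusted share lies above it. In IhhKO_ApcKO minus ApcKO the 9 include 4 of 15 marrow stroma genes and 3 of 25 signalling genes. They include 0 of 12 Stat3-responsive genes and 0 of 7 adipocyte genes.

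On the side of ligand and receptor, Lep itself, the hormone, had a mean level of 4.27 ± 0.10 in IhhKO_ApcKO, 4.37 ± 0.11 in ApcKO and 4.48 ± 0.19 in WT, below the median of the negative control probe sets in all 3 groups. Leprot, which lies just before Lepr on the chromosome and encodes an endosomal protein that limits the receptor at the surface, ran from 9.89 through a median of 10.25 to 10.44 in IhhKO_ApcKO, and from 10.01 through 10.26 to 10.50 in ApcKO. These groups overlap almost fully. The Leprot difference was -0.07 (SE 0.080, 95% interval -0.23 to 0.09; adjusted p from limma 1.00). Its relative Leprotl1 differed by 0.08 (SE 0.057). Clu, a secreted chaperone that can bind leptin, was 7.02 ± 0.38 in IhhKO_ApcKO and 6.60 ± 0.15 in ApcKO, a difference of 0.42 (SE 0.152) that did not pass (adjusted p from limma 0.718).

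Among the signalling genes the kinase Jak2 differed by 0.08 (SE 0.072). It was at 7.63 on the library labelled IhhKO_ApcKO B9 and at 7.29 or less on the other 8 arrays, and without B9 the difference was 0.03 (SE 0.059). Blocking on the letter gave 0.52, a fit in which B9 alone stands against the ApcKO arrays of letter B. Stat3 differed by 0.07 (SE 0.093), the feedback inhibitor Socs3 by 0.05 (SE 0.067) and the adaptor Sh2b1 by 0.01 (SE 0.065). Socs3 stood at 6.23 ± 0.11 in IhhKO_ApcKO and 6.18 ± 0.15 in ApcKO, so its groups overlapped. The phosphatase Ptpn1, which acts on Jak2, was above the ApcKO mean on 9 of 9 IhhKO_ApcKO arrays, by 0.21 (SE 0.090; adjusted p from limma 0.918). Its ApcKO levels ran from 6.74 on A9 through a median of 7.39 to 7.70, and no IhhKO_ApcKO array lay above all of them. The insulin and leptin docking protein Irs1 was below the ApcKO mean on 9 of 9, by -0.35 (SE 0.126; adjusted p from limma 0.697). Pik3r1, a regulatory subunit of the kinase that docks on Irs1, differed by -0.16 and the kinase Fyn by -0.11. Of the 25 measured signalling genes 13 were higher and 12 lower, with 0 past the test.

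Of the receptors most like Lepr in build, none of the 11 measured passed the test. Il6st, which is gp130 itself, was at 10.82 ± 0.11 in IhhKO_ApcKO and 10.78 ± 0.12 in ApcKO, a difference of 0.04 (SE 0.058). The oncostatin M receptor Osmr was at 9.51 ± 0.12 in IhhKO_ApcKO and 9.31 ± 0.11 in ApcKO, higher by 0.19 (SE 0.059) and above every ApcKO array on 6 of 9 arrays, and it did not pass (adjusted p from limma 0.442). Lifr differed by -0.13 and Il6ra by 0.24. Of these receptors 8 were higher and 3 lower, with a median of 0.04 beside 0.01 over all genes. An unadjusted p under 0.05 was found for 1 of 11 (9.09%), beside 4.95% of all genes. Of the 12 measured genes known to respond to Stat3, 10 were higher and 2 lower, with a median of 0.06 and 0 at an unadjusted p under 0.05. Timp1, Bcl3 and Cebpd differed by 0.17, 0.16 and 0.10, and none of the 12 passed.

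Among 15 measured genes that accompany Lepr in the stroma of the bone marrow, 11 were lower in IhhKO_ApcKO than in ApcKO. Their median was -0.03, beside 0.01 over all genes. The test was passed by 0 of 15, beside 0.0455% of all genes. An unadjusted p under 0.05 was found for 4 of 15 (26.7%), beside 4.95% of all genes. In IhhKO_ApcKO minus WT 8 of 15 were lower, with a median of -0.07. Gas6, a ligand of the Axl family of receptors, was at 8.73 ± 0.26 in IhhKO_ApcKO and 9.07 ± 0.14 in ApcKO, a difference of -0.35 (SE 0.091; adjusted p from limma 0.265). Igf1 differed by -0.36 (adjusted p from limma 0.620), Ebf1 by -0.25 and Snai2 by -0.23. The chemokine Cxcl12 differed by -0.02 and the growth factor Kitl by -0.001, the 2 products for which this marrow stroma is best known. Of 7 adipocyte genes 4 were higher and 3 lower, 0 passed, and their list mean was 5.26 ± 0.10 in IhhKO_ApcKO and 5.25 ± 0.15 in ApcKO.

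**Figure D3:**
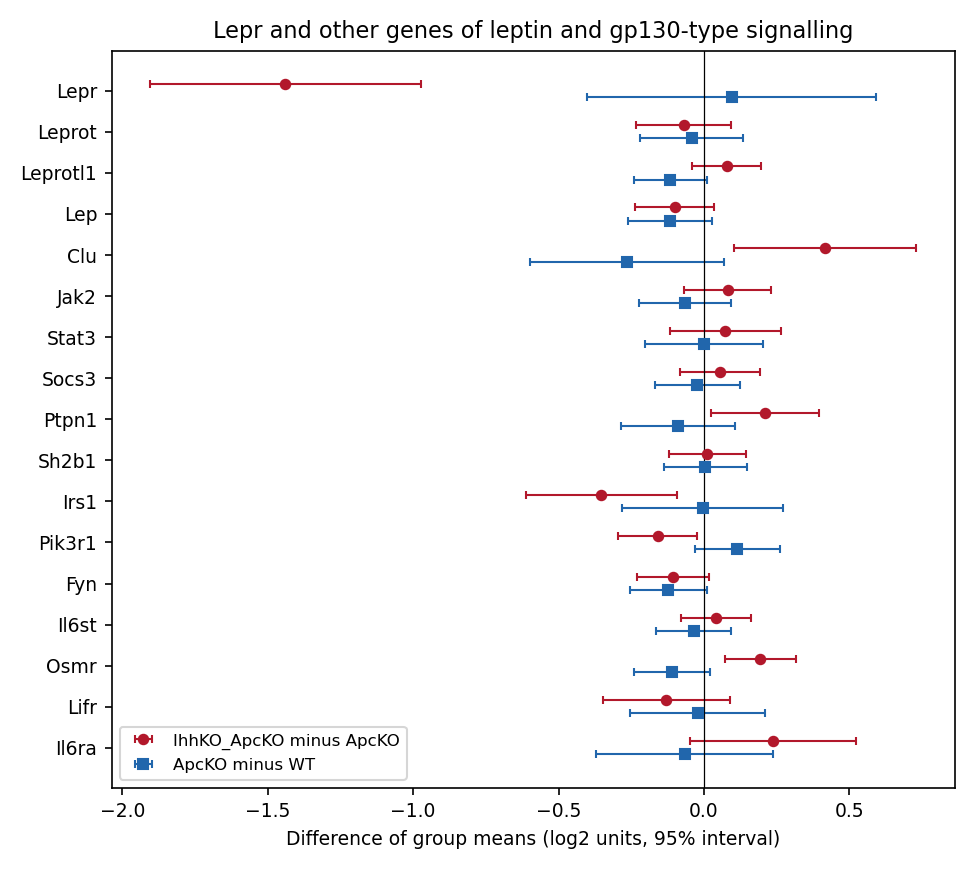
Difference of group means (log2 units, with 95% interval) for Lepr and 16 other genes of leptin and gp130-type signalling, in IhhKO_ApcKO minus ApcKO (red circles) and ApcKO minus WT (blue squares). Lepr in IhhKO_ApcKO minus ApcKO lies at -1.44, and every other point lies between -0.35 and 0.42.

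The nearest measured genes on either side of Lepr, 3 on each, did not pass. Ak4 and Dnajc6 differed by 0.00 and 0.05 in IhhKO_ApcKO minus ApcKO, Leprot by -0.07, and Pramel17 and Gm12791 by -0.06 each. C130073F10Rik, at a mean of 3.24 in IhhKO_ApcKO and 3.41 in ApcKO, differed by -0.17 (adjusted p from limma 0.747).

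The Hedgehog target genes set the scale for Lepr. In IhhKO_ApcKO minus ApcKO, 3 of 7 passed, all lower: Gli1 by -1.31 (SE 0.126; adjusted p from limma 4.02e-06), Ptch1, the Hedgehog receptor, by -1.32 (SE 0.178; 0.00138) and Hhip, a membrane protein that binds and sequesters Hedgehog ligands, by -1.39 (SE 0.207; 0.00458). The Lepr difference of -1.44 was thus of the same size as these 3. Over all genes, 14 of 30748 passed in this contrast (0.0455%). Without the library labelled IhhKO_ApcKO B9 the differences were -1.44 for Gli1, -1.47 for Ptch1 and -1.52 for Hhip, beside -1.59 for Lepr. The IhhKO_ApcKO means of Gli1 and Hhip, 6.92 and 7.91, lie under the 95th percentile of the negative controls like that of Lepr, and Ptch1, at 8.33, lies above it. Foxl1, a transcription factor of subepithelial cells, differed by -0.37 and missed the threshold (adjusted p from limma 0.0509), while Foxl1 in IhhKO_ApcKO minus ApcKO passed without B9 (-0.39; adjusted p from limma 0.0252). Foxf1, Foxf2 and Bmp4 differed by -0.12, -0.08 and -0.01, and without B9 by -0.12, -0.10 and -0.03. With the code letter as a block, Gli1, Ptch1 and Hhip were at -0.25, -0.10 and -0.41. In that fit the library labelled IhhKO_ApcKO B9 alone stands against the ApcKO arrays of letter B. The comparisons share the arrays that chose Lepr, so the likeness of the sizes is a description.

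Hhip followed Lepr from array to array inside the genotypes. For Lepr with Hhip within IhhKO_ApcKO, Hhip was lowest on C6, at 7.33, C9 and C7 followed at 7.41 and 7.42, and it was highest on the library labelled B9, at 8.96. These are also the 3 arrays with the lowest Lepr and the 1 with the highest. Pearson's r was 0.906 over the 9 arrays (exact permutation p = 0.00100, adjusted over 9 relations 0.00903), and Spearman's rho was 0.867 (exact permutation p = 0.00451, adjusted 0.0406). Without B9 and C6, the 2 arrays farthest from the median of Hhip, r was 0.741 (exact permutation p = 0.0494, adjusted 0.111). Without B9 alone it was 0.817 (adjusted 0.0677, exact permutation), so the call in this genotype rests on that library.

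In ApcKO r between Lepr and Hhip was 0.781 (exact permutation p = 0.0226, adjusted 0.0508), with rho 0.810 (exact permutation p = 0.0218, adjusted 0.0490). It was 0.254 without A9 and B8 (exact permutation p = 0.646, adjusted 0.851), so the relation in ApcKO rests on those 2 arrays, both of which also have high Xist. In WT r was 0.829 (exact permutation p = 0.0171, adjusted 0.0508) and rho 0.893 (exact permutation p = 0.0123, adjusted 0.0415). Without A3 and A5 it was 0.925 (exact permutation p = 0.0417, adjusted 0.111). All 3 genotypes thus gave a positive r, and after adjustment only that in IhhKO_ApcKO passed on Pearson's r.

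Ptch1 and Gli1 were less even. In IhhKO_ApcKO, Lepr and Ptch1 had r = 0.867 (exact permutation p = 0.00254, adjusted 0.0114) and rho = 0.800 (exact permutation p = 0.0138, adjusted 0.0415), and r = 0.859 without B9 and C9 (adjusted 0.0902, exact permutation). For Lepr with Ptch1 within IhhKO_ApcKO, r without B9 alone was 0.739 (adjusted 0.0876, exact permutation), so this call too rests on that library. In ApcKO r with Ptch1 was 0.448 (exact permutation p = 0.259, adjusted 0.333) with rho 0.381 (exact permutation p = 0.360, adjusted 0.540), and r was 0.197 without B1 and B8. In WT it was -0.103 (exact permutation p = 0.820, adjusted 0.883) with rho 0.00 (exact permutation p = 1.00), and 0.969 without A1 and A8 (exact permutation p = 0.0167, adjusted 0.0902), the 2 arrays with intermediate Xist. Gli1, the usual readout of the pathway, gave 0.571 in IhhKO_ApcKO (exact permutation p = 0.127, adjusted 0.228; rho 0.167, exact permutation p = 0.678, adjusted 0.871), 0.524 in ApcKO (p = 0.194, adjusted 0.291; rho 0.405, p = 0.327, adjusted 0.540, all exact) and 0.0639 in WT (p = 0.883 on r, p = 0.906 on a rho of 0.0714, both exact). Leaving out the 2 arrays farthest from the Gli1 median gave 0.0911, 0.537 and -0.114 in the same order. Among the 8 C arrays of IhhKO_ApcKO, where Gli1 lay within 6.64 and 7.05, its r with Lepr was -0.353.

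**Figure D4:**
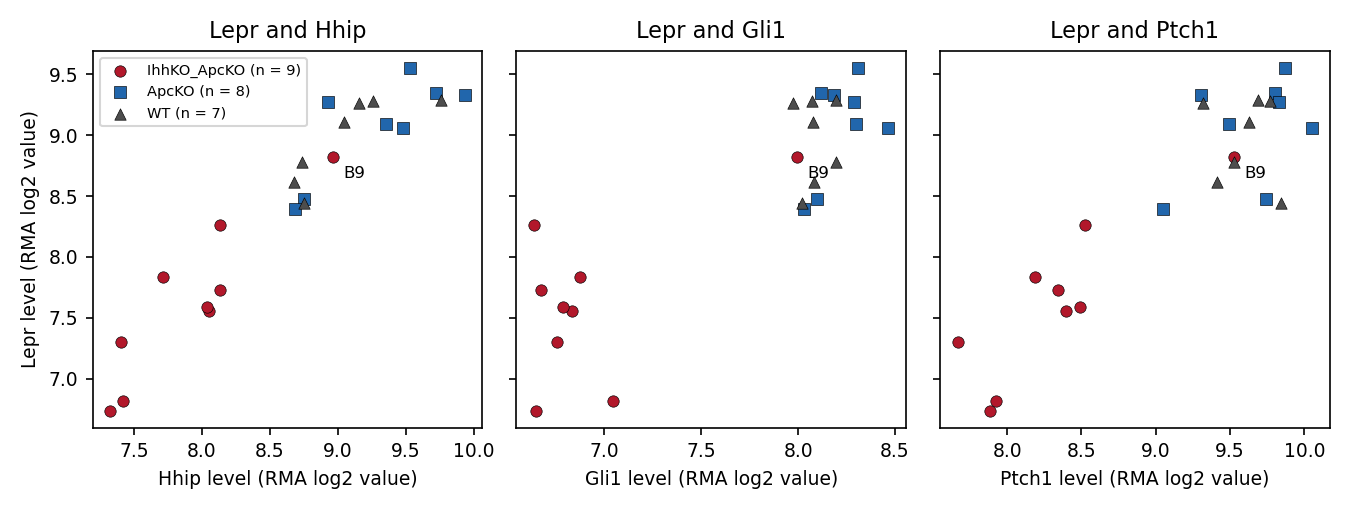
Lepr level against the level of Hhip (left), Gli1 (middle) and Ptch1 (right) on each array (RMA log2 values), with IhhKO_ApcKO as red circles, ApcKO as blue squares and WT as grey triangles. Within IhhKO_ApcKO the points rise with Hhip (r = 0.906) and Ptch1 (r = 0.867), while for Gli1 all but B9 lie between 6.64 and 7.05 over the whole range of Lepr.

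All other genes were then asked whether their level went with Lepr among arrays of 1 genotype. The slope of each gene on Lepr, in log2 units per log2 unit of Lepr, was fitted with genotype as a term over the 24 arrays, so that the difference that chose Lepr does not enter. Of 30747 genes, 6 passed with a positive slope (0.0195%) and 4 with a negative slope (0.013%), at an adjusted p under 0.05 in limma, and 3318 had an unadjusted p under 0.05 (10.8%). In this fit Hhip ranked first of all genes, with a slope of 0.77 (SE 0.101; adjusted p from limma 0.00209) and a within-genotype correlation of 0.847. Without the library labelled IhhKO_ApcKO B9 it ranked 7.

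The other positive followers were Dusp3, Rgs2, Adamdec1, Vipr2 and 9330159F19Rik. Dusp3, a phosphatase that acts on MAP kinases, had a slope of 0.29 (SE 0.0464; adjusted p from limma 0.0224) and hardly differed between genotypes, at 8.08 ± 0.15 in IhhKO_ApcKO, 8.15 ± 0.21 in ApcKO and 8.16 ± 0.17 in WT. Rgs2, which turns off signals of G protein-coupled receptors, had a slope of 0.45 (SE 0.0778; 0.0269), and it too was at a like level, 8.60 ± 0.35 in IhhKO_ApcKO, 8.62 ± 0.30 in ApcKO and 8.56 ± 0.19 in WT. Their ranges overlapped in all 3 groups.

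Adamdec1, a secreted metalloprotease of gut stroma, had a slope of 0.55 (SE 0.101; adjusted p from limma 0.0411). It ran from 10.45 through 11.16 to 12.03 in IhhKO_ApcKO, from 11.15 through 11.83 to 12.23 in ApcKO and from 11.39 through 11.85 to 12.16 in WT, with a difference of -0.62 in IhhKO_ApcKO minus ApcKO that did not pass (adjusted p from limma 0.278). Vipr2, a receptor for vasoactive intestinal peptide, had a slope of 0.33 (SE 0.0608; 0.0471) and a difference of -0.44 (adjusted p from limma 0.146), with 9 of 9 IhhKO_ApcKO arrays below the ApcKO mean. The gene 9330159F19Rik had a slope of 0.71 (SE 0.123; 0.0269). Next in order and short of the threshold were Spata13 (slope 0.30, adjusted p from limma 0.0723), the cell adhesion molecule Ncam1 (0.48, 0.0840), the intermediate filament protein Synm (0.30, 0.0898) and the matrix protein Hmcn2 (0.43, 0.0898).

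The negative followers were dim. Ptpn5, a tyrosine phosphatase best known from brain, had a slope of -0.29 (SE 0.0467; adjusted p from limma 0.0224) at levels of 5.60 ± 0.21 in IhhKO_ApcKO, 5.50 ± 0.17 in ApcKO and 5.51 ± 0.13 in WT. The other 3 were Gm25200, a small nucleolar RNA, with -0.41, Gm9376 with -0.24 at a mean level of 2.83, and Gm15532, a pseudogene, with -0.24. Gm25200 and Gm9376 lie below the negative control median of 4.60. Gpr83, Lrfn2 and Clvs2, the next protein-coding genes, had slopes of -0.38, -0.23 and -0.51 and did not pass.

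Of these 10 genes only Hhip was also among the genes that passed in IhhKO_ApcKO minus ApcKO. Of the 7 Hedgehog target genes all 7 had a positive slope, with a median of 0.27 beside -0.02 over all genes. The test was passed by 1 of the 7, Hhip, beside 0.0195% of all genes with a positive slope past it. After Hhip came Ptch1 with 0.53 (adjusted p from limma 0.142), Gli1 with 0.28 (0.359) and Bmp4 with 0.27 (0.331), while Foxl1 had 0.02. The 76 measured genes of the lists around leptin had 0 past the test and a median slope of 0.02. Irs1 was at 0.33 (adjusted p from limma 0.227), Jak2 at 0.16 (0.361), Leprot at 0.11 (0.567), Stat3 at 0.01 and Socs3 at -0.05. Xist had a slope of -4.08 and did not pass (adjusted p from limma 0.193).

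Single libraries and Xist weighed on the list of followers. Without ApcKO array B8, 1 gene passed, Hhip. Without the library labelled IhhKO_ApcKO B9, 76 passed, 8 of them among the 10; the slope of Adamdec1 was 0.48 there (adjusted p from limma 0.0835), that of Ptch1 0.32, of Gli1 0.01 and of Jak2 0.07. Without ApcKO array A9 there were 5, without IhhKO_ApcKO array C6 3 and without ApcKO array B3 6. With Xist as a term 11 genes passed, 2 of them among the 10, Hhip with 0.80 (adjusted p from limma 0.0235) and Gm9376 with -0.29. Hhip passed in all 24 fits that left out 1 array and in 33 of 35 alternatives in all. Without the library labelled IhhKO_ApcKO B9 its slope was 0.72 (adjusted p from limma 0.0142) and its rank 7. Every other fit that left out 1 array kept Hhip first. Its rank was 4 with Xist as a term and 14 with the letter block. Hhip did not pass in the WT and ApcKO arrays alone, where its slope was 0.88 (adjusted p from limma 0.0638) and its rank 38. Nor did it pass in the IhhKO_ApcKO arrays alone, where its slope was 0.71 (0.613) and its rank 2.

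**Figure D5:**
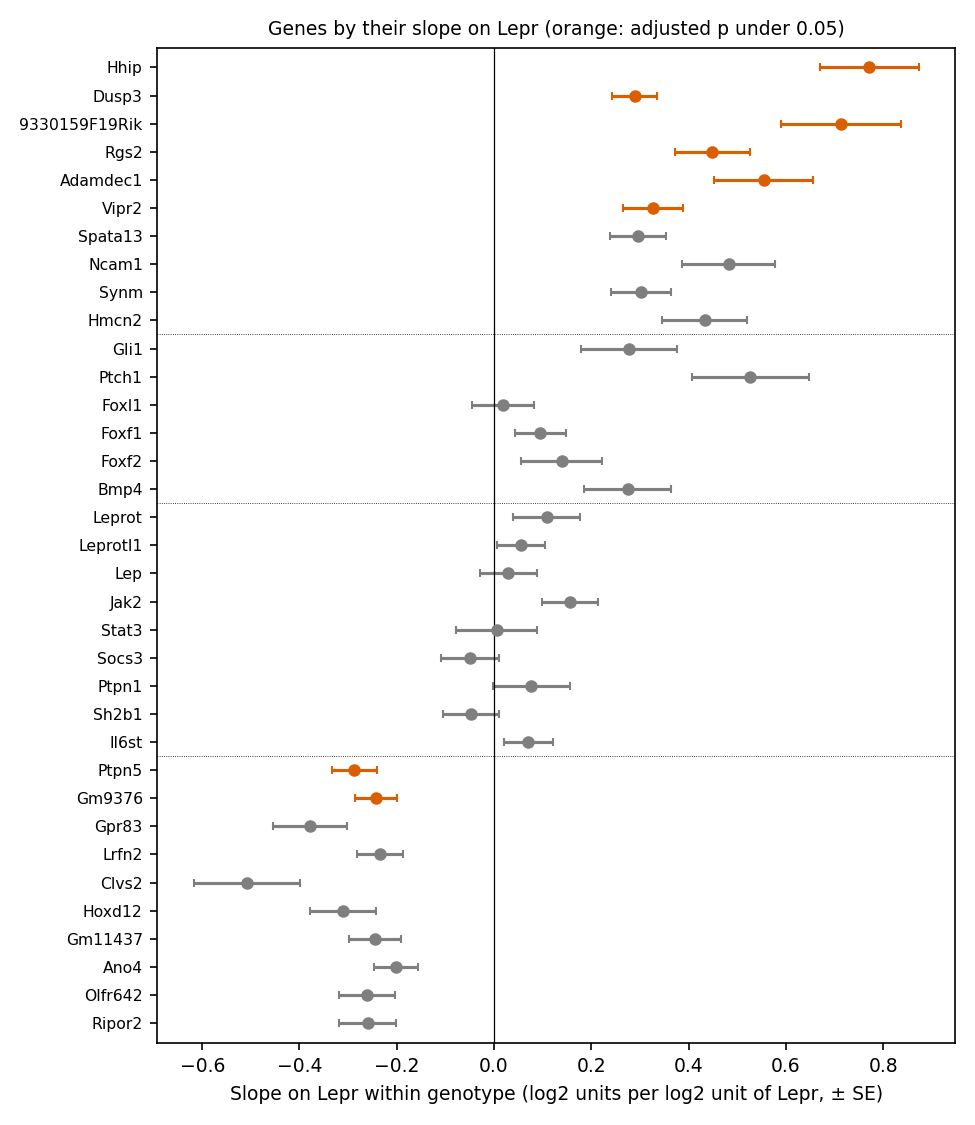
Slope on Lepr within genotype (log2 units per log2 unit of Lepr, with SE) for the 10 protein-coding genes with the smallest p for a positive slope (top block), the other 6 Hedgehog target genes, 9 leptin system genes, and the 10 protein-coding genes with the smallest p for a negative slope (bottom block); orange marks an adjusted p under 0.05. Hhip has the largest slope shown, 0.77, and Stat3 lies at 0.01.

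Over all 24 arrays, where the genotype difference enters, the protein-coding genes most like Lepr were Hhip with r = 0.947, Ptch1 0.900, Vipr2 0.893, Pltp 0.882, Ptprd 0.881, Ncam1 0.879, Fancc 0.869, Gli1 0.866, Eml1 0.866 and Adamdec1 0.863. The genes most opposite were Mgp with -0.782, Nme1 -0.772, Zkscan6 -0.762, Ifitm2 -0.727 and Lmo2 -0.723. The arrays lie in separate groups, so these values describe the order of likeness, and they have no p. Pltp, a phospholipid transfer protein, shows how the measures part: it was at 8.97 ± 0.19 in IhhKO_ApcKO, 9.50 ± 0.22 in ApcKO and 9.61 ± 0.07 in WT, and its slope within genotype was 0.23 and did not pass (adjusted p from limma 0.200).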

How the data were processed

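RNA of sorted colon fibroblasts was amplified with a 3' IVT pico kit and hybridised to 24 Affymetrix Mouse Transcriptome Array 1.0 arrays, per the labels' protocols. The authors' deposited table is on the log2 scale and was made with RMA, per the submitters' processing notes; which software and version ran it is not given in the sources used here. It holds 72688 probe sets. After 6732 control probe sets, 65956 remained, of which 31221 had 1 gene in the platform annotation (symbols updated through the Entrez identifier for 875), 1529 had several and 33206 had none. For the 364 genes with more than 1 probe set, that with the highest mean was kept, which gave 30748 genes, with no filter on dim ones.

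Contrasts and slopes on Lepr were fitted with limma 3.58.1 in R 4.3.3 (lmFit, eBayes) over all arrays, with Benjamini-Hochberg adjustment and a threshold of 0.05, and were tested on simulated data. Correlations within a genotype have exact two-sided permutation p-values. Named genes were Lepr, 9 core leptin genes, up to 4 genes per leptin list with the smallest p, the Hedgehog targets, the 10 protein-coding genes with the smallest p for each sign of slope, the 10 highest and 5 lowest correlations, the neighbours at the locus, and Gm25200 and Gm15532, which also passed. Lepr, the lists and the rules were chosen with earlier results of these data known. Alternatives were median centring, the upper part of genes by mean, array weights, trend and robust moderation, the mean of probe sets, the epithelial mean or code letter as a term, subsets of groups and leaving out each array; Xist as a term was added after seeing the data.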

Additional observations from a re-analysis of the deposited data

Results flagged for a closer look

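Each of 70 genes was examined for 1 array far from the others of its genotype. These were Lepr and the genes picked by the naming rules, without Xist, the Y-linked genes, Gm25200 and Gm15532. Of 210 combinations of a gene and a genotype, 17 held such an array; chance gives about 1 in 20.

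The library labelled IhhKO_ApcKO B9 stood apart in 6 of them. Gli1 was at 7.99 there and at 6.64 to 7.05 on the other 8 arrays, Ptch1 at 9.53 against 7.67 to 8.52, and Hhip at 8.96 against 7.33 to 8.14. Jak2 was at 7.63 against 6.97 to 7.29, Hoxd12 at 4.63 against 5.19 to 5.70, and Mgp at 11.6 against 12.0 to 12.2. In each of these the other arrays are those of IhhKO_ApcKO.

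On IhhKO_ApcKO array C9, Il6st was at 10.6 and Irs1 at 6.89, both below the others, and Il23r was at 3.33, above the others. Ak4 was high at 6.73 on IhhKO_ApcKO array C3 and at 6.81 on ApcKO array B2. C130073F10Rik was at 3.01 on IhhKO_ApcKO array C2, the lowest of its genotype. Leprotl1 was at 7.83 on ApcKO array B8, against 8.11 to 8.33 on the other ApcKO arrays. In WT, array A2 had Bmp4 at 9.79, Ptpn5 at 5.76 and Ripor2 at 5.08, and array A3 had Gpr83 at 5.56. Lepr itself had no such array in any genotype.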

How the results depend on the processing

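With the code letter as a block, Lepr was -0.33 in IhhKO_ApcKO minus ApcKO, -0.83 in IhhKO_ApcKO minus WT and -0.49 in ApcKO minus WT. In that fit the first contrast sets the library labelled IhhKO_ApcKO B9 alone against the ApcKO arrays of letter B. The last sets ApcKO array A9 alone against the WT arrays, and the middle one is the sum of both. Under the other alternatives the Lepr differences kept their sign, and those in the first 2 contrasts stayed within -1.59 and -1.17. The leptin list count stayed at 0 under 27 of 27 alternatives. Hhip, Gli1 and Ptch1 in IhhKO_ApcKO minus ApcKO lost their call under the letter block alone. That block also turned differences in IhhKO_ApcKO minus ApcKO that had not passed: Foxf2 0.062, Bmp4 0.12, Stat3 -0.15, Socs3 -0.043, Sh2b1 -0.19, Il6st -0.016, Il6ra -0.26, Lifr 0.12, Egr1 -0.19, Igf1 0.41 and Snai2 0.0074, and the slopes of Ptpn1 (-0.028) and Gli1 (-0.0082) on Lepr within genotype. Array weights turned Bmp4 in IhhKO_ApcKO minus ApcKO to 0.0011, Sh2b1 to -0.011 and Fabp4 to -0.032, and Xist as a term turned Bmp4 to 0.0082. The slope of Stat3 on Lepr within genotype was -0.012 with the epithelial mean as a term and -0.037 in WT and ApcKO arrays only, where that of Sh2b1 was 0.019. The differences under the letter block are those of the library labelled IhhKO_ApcKO B9 from the ApcKO arrays of letter B. For the slopes and the other alternatives the cause was not tested.

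The number of genes that follow Lepr within genotype was 19 with median centring (8 of the 10), 17 with array weights (8), 30 with the letter block (5), 18 in WT and ApcKO arrays only (1) and 1 in IhhKO_ApcKO arrays only, which rest on fewer arrays. Leaving out 1 array gave 1 (without ApcKO array B8) to 76 (without the library labelled IhhKO_ApcKO B9). Leaving out 1 array also gave -0.038 to 0.087 for the slope of Stat3, -0.074 to 0.025 for Bmp4 and -0.028 to 0.035 for Sh2b1 in IhhKO_ApcKO minus ApcKO.

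For the correlations of Lepr, median centring gave 0.806 with Hhip in ApcKO and 0.843 in WT, both past the threshold (adjusted exact permutation p = 0.0364). Without the 2 farthest arrays r was 0.741 with Hhip and 0.859 with Ptch1 in IhhKO_ApcKO, both no longer past it, and -0.114 with Gli1 and 0.969 with Ptch1 in WT. Leaving out 1 array, r with Hhip ranged over 0.817 to 0.940 in IhhKO_ApcKO and 0.673 to 0.915 in ApcKO, r with Ptch1 over 0.739 to 0.894 in IhhKO_ApcKO, -0.035 to 0.630 in ApcKO and (Lepr with Ptch1 within WT) -0.363 to 0.432, and r with Gli1 over -0.353 to 0.732 in IhhKO_ApcKO and -0.251 to 0.381 in WT. No paired analysis was possible because the groups share no sample code.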

Other observations

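With Xist as a term, 9 genes passed for the slope on Lepr that had not passed without it. The positive ones were Ncam1 with 0.71 (adjusted p from limma 0.00592), Gucy1a2, a subunit of the nitric oxide receptor, with 0.53 (0.0143), Uprt with 0.81, Cped1 with 0.45, the Wnt ligand Wnt2b with 0.61 (0.0373) and Hpse2, a heparanase relative, with 0.84. The negative ones were Rdh16 with -0.69, Pllp with -0.67 and Gm14869 with -0.43. Of the 6 positive followers named in the report, 9330159F19Rik had the closest relation to Xist, with a within-genotype correlation of -0.79 and a slope on Lepr of 0.42 once Xist was a term (adjusted p from limma 0.121). Dusp3 followed with -0.66, and Adamdec1 stood at -0.34 with a slope of 0.65 (adjusted p from limma 0.0507).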
